A study of Mus musculus with 6 samples.

Results

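Hemoglobin and red cell transcripts were followed in mouse substantia nigra through 6 genes, taken by name from the 55335 genes in the count files: the alpha globins Hba-a1 and Hba-a2, the beta globins Hbb-bs and Hbb-bt, and the erythroid genes Alas2 and Slc4a1. All 6 were found. Total RNA of the substantia nigra of C57 mice, the midbrain nucleus that holds dopaminergic neurons, was sequenced in 3 libraries titled WT, called control here, and 3 libraries with the genotype label shDNAJB1, a short hairpin RNA against Dnajb1. The sources used here do not give the age of the mice, the route of the hairpin or whether control mice received one. They also do not say that each library is a different mouse, and a p-value here reflects the spread between libraries alone, part of which may be technical. Slc6a3 and Th, the dopamine transporter and the rate-limiting enzyme of dopamine synthesis, served as the reference for dopaminergic content.

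Hemoglobin is a tetramer of alpha and beta globin chains, each holding a heme, and red cell precursors make it in large amounts. Alas2 is the erythroid form of the enzyme that starts heme synthesis, and Slc4a1 is band 3, the anion exchanger of the red cell membrane. Young red cells still carry globin transcripts, so blood left in the vessels brings them into any tissue extract. Globin transcripts have also been described in midbrain dopaminergic neurons. The question was therefore whether globin levels moved over the libraries with the erythroid genes or with the dopaminergic reference.

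The 2 genes of each globin type are nearly the same sequence, which bears on how their counts can be read. The coding sequences of Hba-a1 and Hba-a2 have 426 bases and 1 difference, C381T, and those of Hbb-bs and Hbb-bt have 441 bases and 1 difference, C417T. Positions are counted from 1 at the A of the start codon, with the base of Hba-a1 or Hbb-bs first. The coding stretches around these differences are shown 5′ to 3′ from the GENCODE transcripts, with the differing base in capitals. They lie at chr11:32284313-32284373 (plus strand), chr11:32297130-32297190 (plus strand), chr7:103826668-103826722 (minus strand) and chr7:103812659-103812713 (minus strand) of mm10, in the order given.
Hba-a1: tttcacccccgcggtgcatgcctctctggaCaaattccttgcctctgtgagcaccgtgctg
Hba-a2: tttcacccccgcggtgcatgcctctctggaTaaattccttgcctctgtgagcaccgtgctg
Hbb-bs: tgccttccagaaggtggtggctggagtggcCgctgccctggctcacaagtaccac
Hbb-bt: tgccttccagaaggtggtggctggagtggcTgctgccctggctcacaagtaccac

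Of all stretches of 100 bases in the main Hba-a2 transcript, 74.5% also occur in Hba-a1, and 56.5% of those of Hba-a1 occur in Hba-a2. For Hbb-bs and Hbb-bt the shares were 62.6% and 54.8%. The sources used here do not state the treatment of reads with more than 1 matching place, so the split between the copies is uncertain, while the alpha and beta totals rest on different sequences. In mm10, Hba-a1 (ENSMUSG00000069919) spans 32283511 to 32284465 and Hba-a2 (ENSMUSG00000069917) 32296489 to 32297298, both on the plus strand of chromosome 11. Hbb-bs (ENSMUSG00000052305) spans 103826534 to 103828096 and Hbb-bt (ENSMUSG00000073940) 103812524 to 103813996, both on the minus strand of chromosome 7. Alas2 (ENSMUSG00000025270) spans 150547375 to 150570638 on the plus strand of chromosome X, and its exons overlap those of Apex2 and Mir3620 on the opposite strand, whose reads cannot be told apart without the strand setting of the counting. Slc4a1 (ENSMUSG00000006574) spans 102348824 to 102366203 on the minus strand of chromosome 11, and its exons, like those of the 4 globins, overlap no exon of another annotated gene.

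Because the globins moved together over the libraries, their upstream sequences are shown as well. RefSeq sequences (GRCm38.p6) matched 5 of the 6 genes, all but Slc4a1. The 250 bases before each RefSeq start were searched on both strands for GATAA (the core bound by GATA factors), CACCC (bound by KLF factors), CCAAT and TATAA. All 4 globins held all of these motifs, which 0.968% of 32851 upstream windows of that length did. Singly, GATAA was in 22.6% of the windows, CACCC in 52.0%, CCAAT in 33.8% and TATAA in 22.8%. Alas2 held GATAA and CACCC on the opposite strand and TATAA, but not CCAAT. The upstream stretch of Hba-a2 lies at chr11:32296242-32296488 (plus strand), and the same 247 bases stand before Hba-a1, shifted by 3 bases. Stretches of 30 bases around matches are given for Hbb-bs at chr7:103827991-103828020 (minus strand), Hbb-bt at chr7:103813985-103814014 (minus strand) and Alas2 at chrX:150547319-150547348 (plus strand). The RefSeq starts differ from the GENCODE spans given above. The Hbb-bs stretch lies inside the GENCODE span, which runs to 103828096, and the Hbb-bt stretch lies partly inside its span, which runs to 103813996. The Alas2 stretch lies before its GENCODE start at 150547375, but the CACCC matches of Alas2 lie past it. Capitals mark the motif matches, and a match describes letters only.
Hba-a2: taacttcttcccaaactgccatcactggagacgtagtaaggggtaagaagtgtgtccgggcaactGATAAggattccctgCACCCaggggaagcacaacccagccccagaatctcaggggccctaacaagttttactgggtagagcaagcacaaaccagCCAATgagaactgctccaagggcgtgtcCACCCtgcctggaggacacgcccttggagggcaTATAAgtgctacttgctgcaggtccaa
Hbb-bs: caCACCCtggtaagggCCAATctgctcaca
Hbb-bt: aaCACCCtggcATTGGCCAATctgctcaga
Alas2: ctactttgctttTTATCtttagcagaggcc

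The libraries held 24541386 to 38468363 counts. Levels are counts per 1000000 library counts (CPM) with TMM scaling, which corrects for differences in library composition. Dnajb1 was at 59.8, 47.2 and 51.9 CPM in control 1, 2 and 3 and at 44.3, 52.4 and 52.5 CPM in shDNAJB1 1, 2 and 3, a log2 fold change of -0.09 (SE 0.13, 95% interval -0.39 to 0.21; edgeR adjusted p = 0.909). The groups overlap, so no fall of the target was detected, and every direction below refers to the label. Th and Slc6a3, which define dopaminergic neurons, were present in every library.

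Globin transcripts were present in every library, and for each of the 4 genes the group means differed by less than the range of the libraries within either group. Hba-a1 was at 126 CPM in control 1, 65.4 in control 2 and 36.0 in control 3, against 33.0 CPM in shDNAJB1 1, 67.0 in shDNAJB1 2 and 44.3 in shDNAJB1 3. Hba-a2 was at 90.6, 45.7 and 27.1 CPM in the controls and at 24.4, 51.6 and 30.5 CPM in the libraries labelled shDNAJB1. Control 1 stood highest and shDNAJB1 1 lowest, and the groups overlap for both alpha globins. The beta globin Hbb-bs, the more abundant of its pair, was at 108, 65.6 and 39.6 CPM in the controls and at 31.8, 70.9 and 41.8 CPM in the libraries labelled shDNAJB1. Hbb-bt was at 48.9, 27.3 and 16.7 CPM and at 14.9, 28.1 and 19.3 CPM in the same order. All 4 globins ranked the 6 libraries alike: control 1, shDNAJB1 2, control 2, shDNAJB1 3, control 3 and shDNAJB1 1, from high to low. The highest library was 3.28 to 3.81 times the lowest. Of 15984 tested genes with a mean of at least 1 CPM, 6.22% to 8.27% varied by a larger ratio than these globins, and the median gene varied 1.52-fold.

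**Figure D1:**
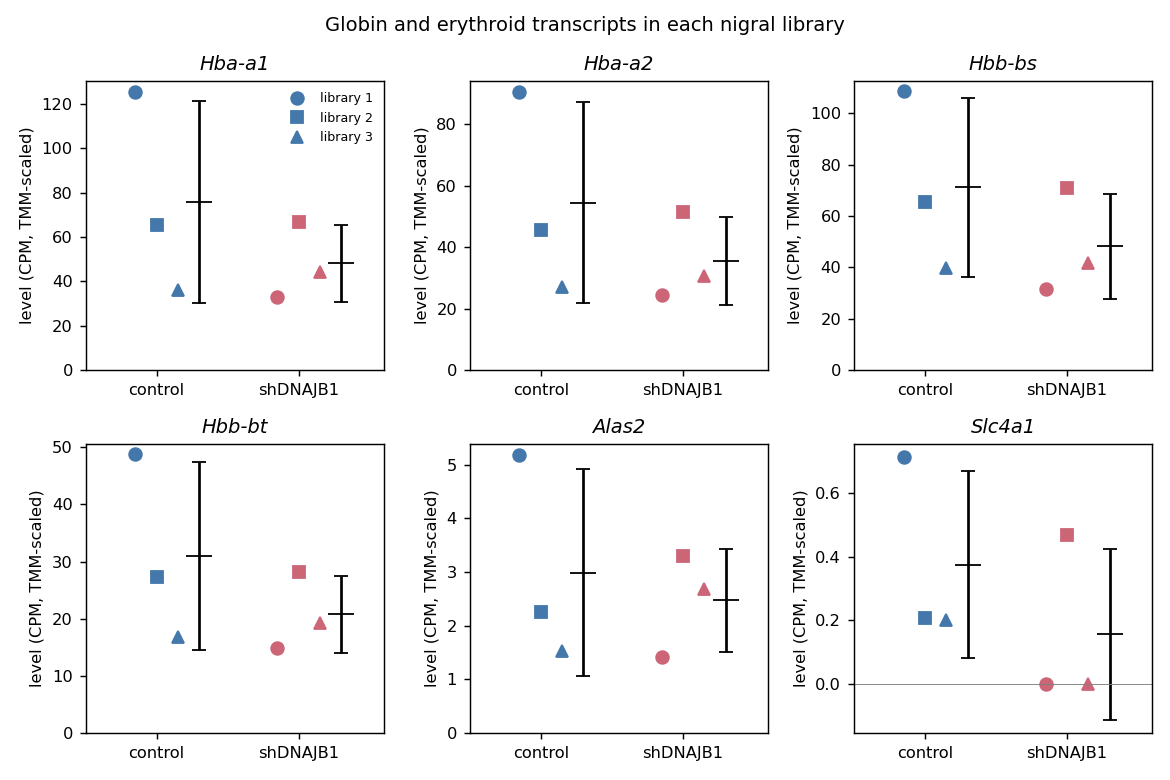
Level of each of the 6 genes (CPM, TMM-scaled, linear axis) in the 3 control libraries (blue) and the 3 libraries labelled shDNAJB1 (red), with marker shape for the library number and a black bar for the group mean ± SD (n = 3). Control 1 is the highest library in all 6 panels, and the groups overlap in each.

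The erythroid genes were far less abundant. For Alas2, control libraries 1 to 3 held 189, 65 and 46 counts (5.19, 2.25 and 1.53 CPM), and shDNAJB1 libraries 1 to 3 held 35, 92 and 105 counts (1.42, 3.30 and 2.69 CPM). Control 1 was highest and shDNAJB1 1 lowest, as for the globins, but shDNAJB1 3 stood above control 2. For Slc4a1 the controls held 26, 6 and 6 counts (0.714, 0.208 and 0.200 CPM), and the shDNAJB1 libraries held 0, 13 and 0 counts (0.467 CPM in the second). Control 1 was again highest, with shDNAJB1 2 next. The 0 counts allow up to 0.122 CPM in shDNAJB1 1 and 0.0788 CPM in shDNAJB1 3, a limit for counting error only. Per kilobase of exon, the mean level over the 6 libraries was 76.2 CPM for Hba-a1, 67.4 for Hba-a2, 77.7 for Hbb-bs, 36.8 for Hbb-bt, 1.14 for Alas2 and 0.0541 for Slc4a1. On the same scale Slc6a3 was at 157 CPM and Th at 108 CPM. The levels of Hba-a1, Hba-a2 and Hbb-bs in this order differed by less than their spread over libraries, which was 40.6 to 155 CPM per kilobase for Hba-a1.

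No difference between the groups was detected for these genes. With edgeR 0 of the 5 tested members passed at an adjusted p of 0.05, as did 0.0% of 18870 genes. At an unadjusted p under 0.05 it was 0 of 5 members against 6.37% of all genes (1202). DESeq2's Wald test called 0 members and 35 genes, 0.167% of those with an adjusted p, and limma-voom called 0 of either. All 5 tested members were lower in the libraries labelled shDNAJB1, as were 49.2% of all genes, with a median log2 fold change of -0.58 against 0.0053 over all genes. These genes share their pattern over libraries and are not independent of each other. Mean Hba-a1 was 75.7 ± 45.6 CPM for control and 48.1 ± 17.3 CPM for shDNAJB1 (SD, n = 3), a log2 fold change of -0.65 with a 95% interval from -1.65 to 0.34 and an edgeR adjusted p = 0.797. The other globins were at -0.62 (Hba-a2), -0.56 (Hbb-bs) and -0.58 (Hbb-bt), and Alas2 was at -0.28 with an interval from -1.42 to 0.87 and an edgeR adjusted p = 0.928. A two-sided exact permutation test gave p = 0.5 for Hba-a1 and p = 0.8 for Alas2, where 0.1 is the smallest that 3 against 3 can give. Slc4a1 fell below the count filter and was not tested. Lists of markers of other cells went both ways under the shDNAJB1 label by fitted fold change. All 13 endothelial, all 5 tested neutrophil and all 3 tested platelet genes were higher, and the 2 tested lymphocyte genes were lower. The dopaminergic, GABAergic, astrocyte and choroid plexus lists were mixed. All 8 oligodendrocyte genes were lower, with a median log2 fold change of -0.48, 0 called in edgeR and 4 at an unadjusted p under 0.05, and they summed to 14918 to 16077 CPM in controls and 8679.6 to 15809 CPM in the others. All 7 microglial genes were lower, with a median of -0.27 and 0 called in edgeR (0 unadjusted), and they summed to 259 to 497 CPM in controls and 175 to 545 CPM in the others. The part of these cells in the globin values was not tested. These values moved with single libraries. Without control 1 the log2 fold changes were -0.07, -0.03, -0.12 and -0.08 for Hba-a1, Hba-a2, Hbb-bs and Hbb-bt, and 0.40 for Alas2. Without control 3 they were -0.99, -0.94, -0.85, -0.87 and -0.59 in the same order, and without shDNAJB1 2 they were -0.96, -0.98, -0.94, -0.85 and -0.52. Without shDNAJB1 1 they were -0.45, -0.41, -0.34, -0.39 and -0.0092. Without control 3, 4 members had an unadjusted p under 0.05 in edgeR, beside 989 of all genes. Without shDNAJB1 2 it was 1 member, beside 751 of all genes. Past the adjusted threshold there were 0 members each time.

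Within a library, the globins kept nearly fixed ratios to each other. The alpha share of globin counts was 57.9% (95% Wilson interval 57.03% to 58.7%) in control 1 and 52.8% (51.2% to 54.5%) in control 3, the extremes. Those intervals do not overlap, but the share varied only 1.10-fold while the summed globin level varied 3.59-fold. The Hba-a2 share of alpha globin counts ran from 40.8% to 43.5%, and the Hbb-bt share of beta globin counts from 28.4% to 31.9%. Intervals cover counting error only, since reads from PCR without molecular identifiers are not independent molecules.

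Globins and Alas2 were in a steadier ratio than globins and dopaminergic transcripts. For each Alas2 count, controls 1 to 3 held 72.0, 90.6 and 78.1 globin counts and shDNAJB1 libraries 1 to 3 held 73.3, 65.9 and 50.5, a range of 1.79-fold. For each 100 Slc6a3 counts there were 118, 18.9 and 28.5 globin counts in the controls and 12.8, 47.5 and 75.7 in the libraries labelled shDNAJB1, a range of 9.26-fold. For each 100 Th counts the range was 8.40-fold, from 29.0 in shDNAJB1 1 to 244 in control 1. These ranges rested partly on those 2 libraries: without control 1 they were 5.92-fold for Slc6a3 and 4.83-fold for Th, and without shDNAJB1 1 they were 6.26-fold and 5.003-fold. Over all sets of 5 libraries the range for Alas2 was 1.38-fold to 1.79-fold. The ratio to Alas2 was not constant beyond counting error. Alas2 made up 1.94% of globin and Alas2 counts in shDNAJB1 3 (95% Wilson interval 1.61% to 2.34%) and 1.09% in control 2 (0.857% to 1.39%). Slc4a1 departed the other way in shDNAJB1 3, with 0 counts beside 5305 globin counts, which allows a share of up to 0.0566%, against 0.191% (0.130% to 0.279%) in control 1.

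**Figure D2:**
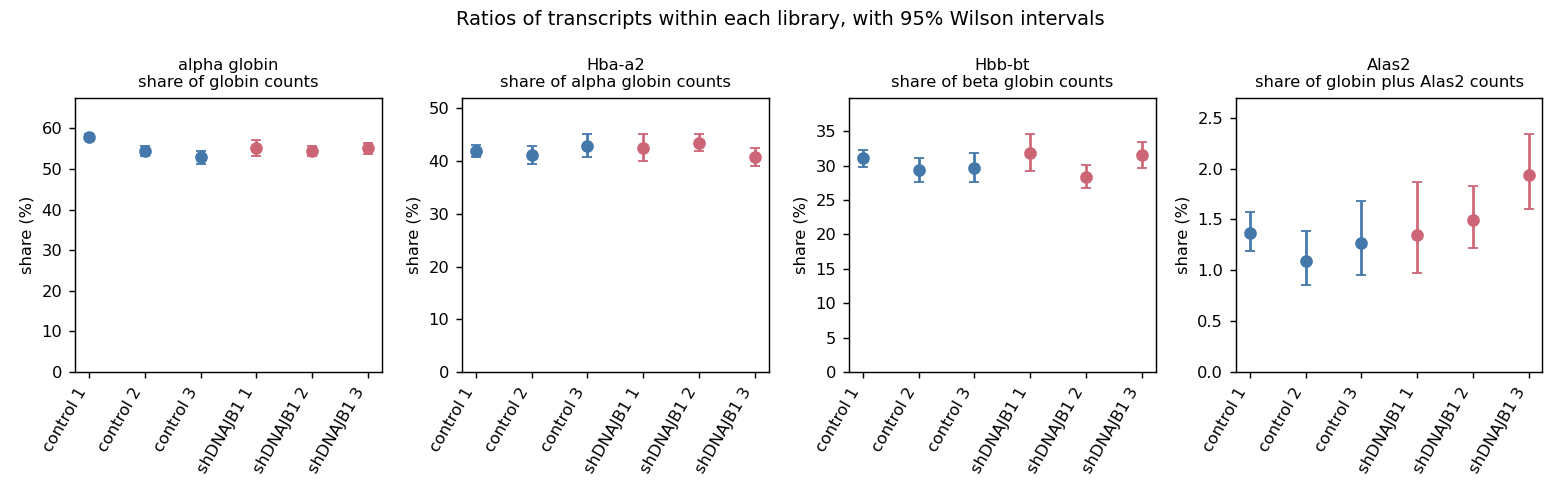
Share of counts (%, linear axes from 0) within each library for alpha globins among globins, Hba-a2 among alpha globins, Hbb-bt among beta globins, and Alas2 among globins and Alas2, with 95% Wilson intervals as bars (controls blue, libraries labelled shDNAJB1 red). The first 3 shares stay within 1.12-fold of each other over libraries, and Alas2 is highest in shDNAJB1 3 at 1.94%.

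Over the 6 libraries, globin levels followed Alas2 and Slc4a1 and showed no detectable relation to Slc6a3 or Th. All 28 pairs among the 8 genes were correlated on log2(CPM + 0.5), with exact two-sided permutation tests adjusted over the 28 pairs. The 6 pairs of globins had r from 0.987 to 0.999 (exact p = 0.00139, adjusted p = 0.00556 for each), where the copies of a type may share reads. All 8 pairs of a globin with an erythroid gene passed on Pearson's r. Since the 4 globins moved together, these 8 pairs are not independent results and repeat the comparison with Alas2 and that with Slc4a1. With Alas2, r was 0.928 for Hba-a1 (exact p = 0.00694, adjusted p = 0.0243), 0.923 for Hba-a2, 0.900 for Hbb-bs and 0.925 for Hbb-bt, and Spearman's rho was 0.943 for each (exact p = 0.0167, adjusted p = 0.0424). With Slc4a1, r ran from 0.867 to 0.912, and rho was 0.899 for each (exact p = 0.0278), which missed the threshold at an adjusted p = 0.0519. The 4 pairs with Slc4a1, which lies near the pseudocount, no longer passed on r with a pseudocount of 0.1 CPM or with values centred on group means, while the 4 with Alas2 did. The centred values were permuted over all 6 libraries and not within groups, so their p-values are approximate and may be too small. Alas2 and Slc4a1 themselves had r = 0.773 and rho = 0.754 (exact p = 0.0667 and 0.106), adjusted p = 0.117 and 0.185.

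None of the 8 pairs of a globin with Slc6a3 or Th passed. Their r ran from -0.14 to 0.0021, with rho = -0.20 for each, exact p from 0.714 to 0.997 and adjusted p from 0.769 to 0.997. Slc6a3 was at 316, 1079 and 419 CPM in control 1, 2 and 3 and at 814, 458 and 179.7 CPM in shDNAJB1 1, 2 and 3. It was thus highest in control 2 and second highest in shDNAJB1 1, the library lowest in all 4 globins. Th was at 153, 418 and 177 CPM and at 358, 335 and 97.0 CPM and ranked the libraries as Slc6a3 did (r = 0.937, exact p = 0.00139, adjusted p = 0.00556, rho = 1.00). In bulk tissue, fewer cells of a type and less RNA per cell cannot be told apart.

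**Figure D3:**
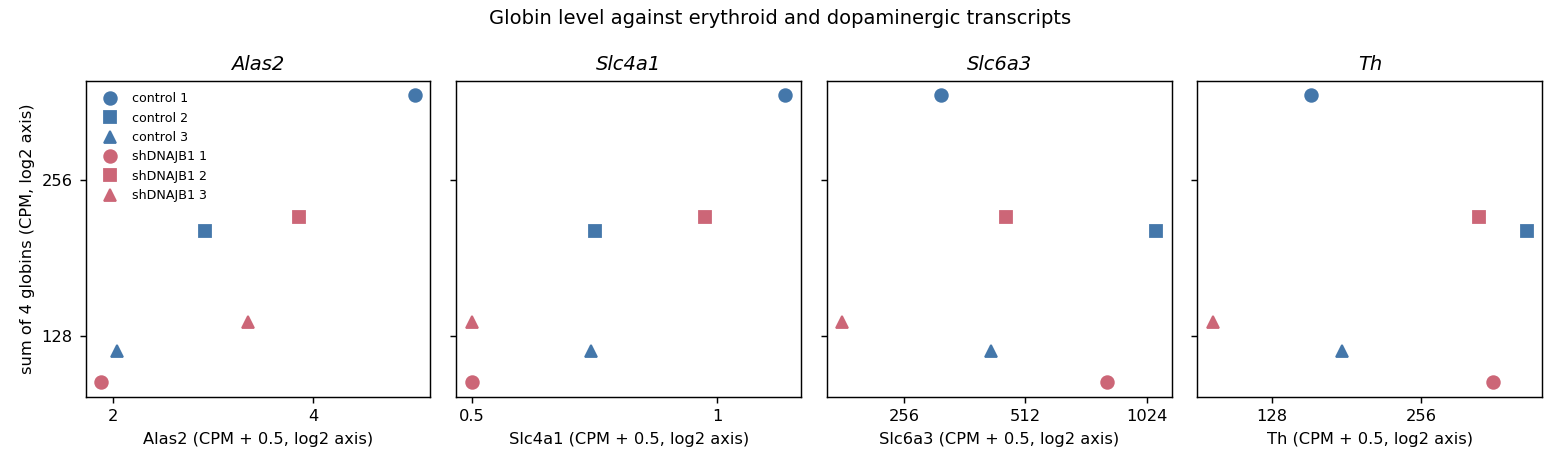
Summed level of the 4 globins (CPM, log2 axis) against Alas2, Slc4a1, Slc6a3 and Th (CPM + 0.5, log2 axes) in the 6 libraries, control in blue and shDNAJB1 in red, with marker shape for the library number. Points rise from left to right for Alas2 and Slc4a1, and for Slc6a3 and Th control 1 is high in globins at a low level of the reference, with shDNAJB1 1 the reverse.

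The relation of globins to the erythroid genes depended on single libraries, in its strength and in which pairs passed. Leaving out the 2 libraries farthest from the median of Alas2 or Slc4a1, which were control 1 and shDNAJB1 1 each time, r stayed positive at 0.563 to 0.726 over 4 libraries, which were too few for a test, so the strength of the relation rested on those 2 libraries. With 5 libraries, 0 of the 8 pairs passed without control 1, shDNAJB1 1 or shDNAJB1 2. Without control 1 their r was 0.704 to 0.816. Without shDNAJB1 2 it was still 0.892 to 0.929 with Alas2 and 0.880 to 0.909 with Slc4a1. A test on 5 libraries has fewer permutations, so a pair can miss the threshold at a similar r. The 4 pairs with Alas2 passed without control 2 and without shDNAJB1 3, while those with Slc4a1 did not. Without control 3 it was the 4 with Slc4a1 that passed (permutation test, adjusted p = 0.0424), and those with Alas2 did not (adjusted p = 0.0778). Over these sets of 5 libraries r ran from 0.704 to 0.984. Without the 2 libraries farthest from the median of Slc6a3 or Th, control 2 and shDNAJB1 3, r of globins with these genes ran from -0.81 to -0.45. Leaving out single libraries moved it between -0.47 and 0.42, so its sign is not fixed by these data. Within the groups, after removing each group's mean, r of globins was 0.943 to 0.967 with Alas2, 0.838 to 0.890 with Slc4a1 and -0.26 to 0.0068 with the dopaminergic reference. In both groups the order of the 3 libraries was the same for the globins and Alas2.

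Against all genes, Alas2 stood near the top in likeness to the globins, though it was not the most alike. Its mean r with the 4 globins was 0.919, and 41 of 15979 other genes with at least 1 CPM (0.257%) were higher, where the median gene had 0.0616. For Slc6a3 and Th, with mean r of -0.12 and -0.04, 61.6% and 56.8% of genes were higher. Genes with clone names, such as Gm numbers or Rik, were left out of the naming that follows but not of that count. The most alike were Gabbr1, a subunit of the GABA-B receptor (r = 0.989), Mgat5b, a glycosyltransferase gene (0.986), Mrpl53, a mitochondrial ribosomal protein gene (0.976), Abhd16a (0.969), Arl15 (0.964), Irx3 (0.963), Foxp4 (0.963) and Metrnl (0.962). These varied much less than the globins, from 1.10-fold for Abhd16a to 2.38-fold for Mrpl53, and with 6 libraries a high r over so many genes is a description only. Among the 41, only Barx2, a homeobox gene picked out after its values were seen, varied by at least 3.28-fold, with 2.17, 1.42 and 0.665 CPM in the controls and 0.568, 1.69 and 1.08 CPM in the libraries labelled shDNAJB1. Again without clone names, the 5 genes most like Alas2 were Aida, Pigu, Sap18, Snx2 and Lipe. Their r ran from 0.975 to 0.986, with ranges of 1.18-fold to 1.34-fold.

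Of 28 further erythroid genes 27 were matched and 15 were tested, with 11 lower and 4 higher by fitted fold change. In edgeR 0 passed, and 2 (Ank1 and Car2) had an unadjusted p under 0.05, against 6.37% of all genes. Levels within the list were uneven. Gata1, Rhag and Kel had 0 counts in every library, and Epb42, named here after its values were seen, had 5 counts in shDNAJB1 3 and 0 in the other libraries. The erythroid transcription factor gene Klf1, named in the same way, had 0 counts in each control and 3, 13 and 6 counts in shDNAJB1 1, 2 and 3. It averaged 0.124 CPM, fell below the count filter and was not tested. Trim10, also untested, went the other way, with 9, 6 and 7 counts in the controls and 2, 0 and 0 in the others. How many genes with so few counts part the groups in this way was not counted. Other genes of this list, also named after their values were seen, were at higher levels. The transcription factor gene Tal1 averaged 16.0 CPM, the mitochondrial iron carrier gene Slc25a37 35.1 CPM and the erythropoietin receptor gene Epor 2.79 CPM. In this order, the mean r with the globins was 0.189, -0.66 and 0.399. Tal1 was highest in shDNAJB1 1 (29.8 CPM) and lowest in shDNAJB1 3 (2.51 CPM), as was the GABAergic gene Gad1 (882 and 56.1 CPM). Which cells held these transcripts was not tested. The most abundant of the list were Car2 (259 CPM on average), Add2 (207 CPM), Ank1 (188 CPM) and Sptb (167 CPM), a carbonic anhydrase and 3 genes of the membrane skeleton that brain cells also express. Their mean r with the globins was 0.281, 0.189, 0.168 and 0.157. Over the 11 list members with at least 1 CPM the median r was 0.189, from -0.66 to 0.551, and 0 reached that of Alas2.

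The genes of heme synthesis that all cells use had a mean r with the globins between -0.78 and 0.554. Alas1, the housekeeping form of the same enzyme, was at 38.1, 36.5 and 37.6 CPM in the controls and at 44.0, 34.9 and 39.3 CPM in the others, a range of 1.26-fold with a mean r of -0.54 with the globins. Of the 8 genes, 3 were lower and 5 higher, and 0 passed in edgeR. At an unadjusted p under 0.05 it was 1 (Cpox), against 6.37% of all genes. Cpox, which oxidises coproporphyrinogen, was at a log2 fold change of -0.40 (SE 0.11), Fech, which inserts the iron, at -0.13 and Urod at -0.07. The 7 tested genes of hemoglobin and heme clearance, among them Lrp1, Hmox1, Hmox2 and Blvra, were lower in 6 and higher in 1, with 0 called in edgeR (0 unadjusted) and a median r of -0.04 with the globins over the 6 with at least 1 CPM.

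Among other globins, the embryonic genes Hba-x, Hbb-bh1 and Hbb-bh2 had 0 counts in every library, which allows up to 0.122 CPM in the shallowest, and Hbb-y had 2 counts in 1 library. Neuroglobin (Ngb), the globin of neurons, was at 21.0, 5.44 and 12.9 CPM in the controls and at 6.16, 14.2 and 15.7 CPM in the libraries labelled shDNAJB1. Cytoglobin (Cygb), found in fibroblasts and some neurons, was at 178, 95.2 and 112 CPM and at 113, 116 and 109.9 CPM. Both were highest in control 1, with a mean r with the alpha and beta globins of 0.466 and 0.669. Hbq1a, a theta globin gene, had 6 to 55 counts a library and was highest in shDNAJB1 3, and Mb (myoglobin) averaged 0.322 CPM. Of the 4 tested members of this list, 2 were lower and 2 higher, with 0 called in edgeR. At an unadjusted p under 0.05 it was 1 (Hbq1a), against 6.37% of all genes.

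No marker of other blood cells or of vessels with at least 1 CPM reached the likeness of Alas2 to the globins. The neutrophil genes S100a8 and S100a9, which code for calprotectin, were highest in shDNAJB1 2 and 3, with S100a8 at 1.37, 1.94 and 0.765 CPM in the controls and 0.933, 7.32 and 5.51 CPM under the shDNAJB1 label. The 10 neutrophil markers, all with counts, summed to 8.35 to 18.5 CPM in controls and 13.9 to 30.7 CPM in the others, with a median r of 0.272 over the 5 with at least 1 CPM. The sum was lowest under the shDNAJB1 label in shDNAJB1 1 and rested mostly on Csf3r there, at 11.96 CPM. In that library S100a8 was at 0.933 CPM and S100a9 at 0.568 CPM, so the sum does not follow these 2 genes. Which cells held Csf3r was not tested. The immunoglobulin gene Igkc, a plasma cell product, was highest in control 3, at 17.5, 2.04 and 42.5 CPM in the controls and 3.93, 2.58 and 0.769 CPM in the others. Platelet markers summed to 4.66 to 4.94 CPM in controls and 5.28 to 5.96 CPM in the others. The 13 endothelial genes were all higher by fitted fold change, from a log2 fold change of 0.02 (Cdh5) to 0.60 (Vwf). Of these, 0 were called in edgeR and 4 had an unadjusted p under 0.05, against 6.37% of all genes. The median r of the endothelial genes with the globins was -0.36. Slco1a4, a transporter of the blood-brain barrier, was at 83.4, 106 and 98.0 CPM in controls and 158, 119 and 92.7 CPM in the others, highest in shDNAJB1 1, where globins were lowest. The part of vessel or blood content in the globin values was not tested.

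**Figure D4:**
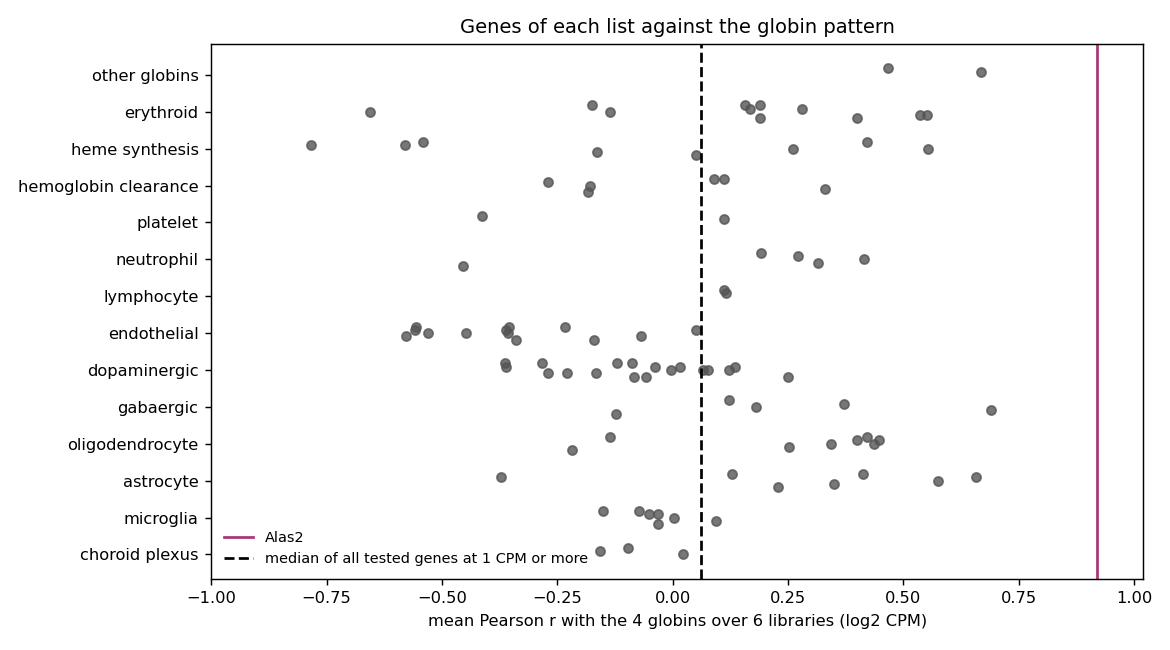
Mean Pearson r with the 4 globins over the 6 libraries (log2 CPM) for each tested gene with at least 1 CPM, by gene list, 1 point a gene. The line marks Alas2 at 0.919 and the dashed line the median of all such genes at 0.0616, and none of the listed genes reaches Alas2.

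The 18 genes of the dopaminergic list had a median r of -0.07 with the globins, from -0.36 to 0.250, where Aldh1a1, a marker of ventral tier neurons, was the highest. By group, 11 were lower and 7 higher, with 0 called in edgeR (0 unadjusted) and a median log2 fold change of -0.02. Microglial genes (median r -0.03), GABAergic genes (0.180), oligodendrocyte genes (0.371), astrocyte genes (0.350) and choroid plexus genes (-0.10) held 0 genes with at least 1 CPM at the level of Alas2. Below 1 CPM, Aqp1, a water channel of the choroid plexus and of red cells that was picked out after its values were seen, had a mean r of 0.928. That is above the 0.919 of Alas2, but at 0.335 CPM, with 22, 10 and 6 counts in the controls and 2, 16 and 8 in the others.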

How the data were processed

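The authors deposited raw counts for each Ensembl gene and library. Per the labels' protocols, total RNA went into TruSeq libraries that keep the strand. The submitters' processing notes name FastQC 0.11.5, STAR 2.5.3a, Cuffnorm, DESeq 1.16.1 and build mm10. The sources used here do not name the counting tool, annotation release or strand setting. Names and positions came from GENCODE M21 of the same build, which matched 55154 of 55335 identifiers.

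Groups came from the titles. The edgeR 4.0.16 quasi-likelihood test (R 4.3.3) was run after filterByExpr (at least 10 counts, 15 in total) and TMM scaling. P-values were adjusted by Benjamini-Hochberg, and 0.05 was the threshold. Alternatives used limma 3.58.1 and DESeq2 1.42.0. Correlations used a pseudocount of 0.5 CPM and exact permutations (scipy 1.17.1). On 5 sets simulated from these libraries with 200 genes changed (18469 genes tested in the first), edgeR recovered 41.8% of 2-fold and 80.0% of 4-fold changes, and 49 of 638 calls were false. The biological coefficient of variation was 24.1%. Figures were drawn with matplotlib 3.10.9.

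The members, lists and tests were chosen with earlier results of these data known. Named genes were the members, Th, Slc6a3, Dnajb1, up to 4 of each list by mean CPM, the 8 genes most like the globins and the 5 most like Alas2. These most alike genes were taken without clone names, such as Gm numbers or Rik. Others named belong to counts of 5 or fewer or were picked out after their values were seen.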

Additional observations from a re-analysis of the deposited data

How the results depend on the processing

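DESeq2's Wald test called 35 genes, and the other 12 alternatives called 0, as did edgeR with TMM. No alternative called a member. Leaving out 1 library gave 0 genes and 0 members each time, with 751 to 2514 genes and 0 to 4 members at an unadjusted p under 0.05. The count of globin to erythroid pairs past the threshold, 8 as reported, was 7 with CPM without TMM. It was 4 with a pseudocount of 0.1 CPM and 4 with values centred on group means, those with Alas2 each time, and 0 to 4 on leaving out 1 library. The centred count is approximate, since permutations did not stay within groups. The cause of these changes in the count was not tested. No globin to dopaminergic pair passed under any of the 11 alternatives run on the count. Leaving out 2 libraries gave r only, with no count. The sign of some values turned. Of r for Hbb-bs and Th it did so with CPM without TMM (-0.0113), DESeq2 size factors (-0.0026) and without the 2 farthest libraries (-0.47). Of r for Slc4a1 it did so with Slc6a3 at a pseudocount of 0.1 CPM (0.018) and with Th without the 2 farthest libraries (-0.54). On leaving out 1 library, log2 fold changes ran from -0.99 to -0.07 for Hba-a1, -0.98 to -0.03 for Hba-a2, -0.94 to -0.12 for Hbb-bs, -0.87 to -0.08 for Hbb-bt, -0.59 to 0.40 for Alas2, -0.17 to 0.011 for Dnajb1, -0.21 to 0.67 for Th and -0.92 to 0.40 for Slc6a3. In the same way r with Slc6a3 ran from -0.43 to 0.17 for Hba-a1, -0.47 to 0.20 for Hba-a2, -0.44 to 0.22 for Hbb-bs, -0.45 to 0.17 for Hbb-bt and -0.72 to 0.21 for Slc4a1. With Th it ran from -0.32 to 0.37, -0.34 to 0.42, -0.30 to 0.38, -0.34 to 0.36 and -0.53 to 0.43 in the same order of genes. Deviations from the group means correlated at 0.051, -0.03 and 0.11 for libraries of equal number, against -0.16 to 0.11 for unequal numbers. The labels give no pairing, and these values cannot exclude one. With the replicate block edgeR gave 0 genes, 0 members and a log2 fold change of -0.51 for Hba-a1 and -0.13 for Alas2. Slc4a1, with at most 26 counts a library, is limited by depth.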
